A study of Mus musculus with 6 samples.

Results

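The chaperonins, heat shock proteins and J-domain proteins are the machines that fold newly made proteins and refold damaged ones. The 79 genes described here were chosen by their mouse symbols, out of 29370 gene identifiers in the deposited gene matrix. Taken in were the protein-coding genes whose symbols begin with Cct and a digit, Hspa, Hspb, Hspd, Hspe, Hsph, Hsp90a, Dnaja, Dnajb or Dnajc, and in addition Tcp1 and Hsf1. Hspa5, Dnajb9, Dnajb11, Dnajc3 and Dnajc10, which serve the endoplasmic reticulum, were left out. The family was selected from these data with its palmitate-control differences already known, so the differences between the groups are given below as a description, and no statement about the family as a whole is supported by them. Of the 79 members, 77 were in the gene matrix, and Cct6a and Hspa14 were taken from sums over their transcripts.

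The RNA came from CD8+ T cells, the cytotoxic lymphocytes, which had been taken out of the spleen, lymph nodes and pancreas of wild-type mice. The study asked what palmitate, a saturated long-chain fatty acid, does to these cells. There were 3 libraries of cells kept for 48 h with 100 µM palmitate and 3 control libraries of the same wild-type genotype and time. The sources used here give neither a vehicle for the control cells nor the strain, sex and age of the mice.

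CCT is a double ring of different but related subunits in the cytosol that encloses actin, tubulin and other proteins while they fold. HSPD1 and its lid HSPE1 form the corresponding chamber in mitochondria. HSP70 proteins bind short unfolded stretches under the control of J-domain proteins, which trigger their ATPase, and of HSP110 proteins, which release the nucleotide, while HSP90 acts late on kinases and receptors, and HSF1 is the transcription factor of the heat shock response. T cells that have been activated grow, divide and make large amounts of protein, and so need these machines.

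The libraries held 16724588 to 24777611 counts with palmitate and 26042768 to 29362276 in control. All 9 of the listed CD8 T cell markers were tested and 6 rose with palmitate; their summed level was 2749 ± 148 CPM (counts scaled to a common total) with palmitate and 2166 ± 242 CPM in control (SD, n = 3 each). The markers of B and plasma cells summed to 272.9 to 303.7 CPM with palmitate and 176.7 to 242.3 CPM in control, with 2 of 8 tested markers higher. Myeloid markers summed to 8.78 to 13.3 CPM with palmitate and 7.84 to 10.5 CPM in control, and 4 of the 8 pancreas markers, Ins1 and Ins2 among them, were at 0 in all libraries. Erythroid markers summed to 8.94, 11.3 and 5.54 CPM with palmitate, against 3.91, 3.60 and 1.41 CPM in control, with 1 of 3 tested markers higher. The summed CD8 T cell, B and plasma cell and erythroid markers did not overlap between the groups, and their part in the differences below was not tested; the summed myeloid markers overlapped, and none of the 4 tested myeloid or 2 tested pancreas markers was called. In bulk RNA, fewer cells of a type and less RNA per cell cannot be told apart, and since the labels name no animal or culture for a library, the spread between libraries may be technical.

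The family's summed share of the counts was lower in the palmitate libraries, and the sum is carried by its few most abundant members. The CPM of the 79 members added up to 26244, 30354 and 30478 in palmitate libraries 1 to 3, against 32668, 34597 and 34952 in control libraries 1 to 3, so the groups did not overlap. The mean was 29025 ± 2410 CPM with palmitate and 34072 ± 1229 CPM in control (SD, n = 3 each), a difference of -14.8%. These are very abundant messages: by mean CPM, Hspa8 ranked 3, Hsp90ab1 8, Hsp90aa1 9 and Hspd1 31 among all genes. Over the 755 tested genes with a mean of at least 8 on the log2 CPM scale, the median log2 fold change was -0.11. Nothing about the family as a whole is read from its sum. Palmitate library 1 was the lowest of its group for 17 of the 18 members with a mean of at least 8 on the log2 CPM scale, and control library 1 was the lowest of its group for 13 of them.

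In all, 62 members passed the filter on low counts and 17 did not, of which 6 were at 0 in every library. Called means an adjusted p under 0.05 over all 12070 genes tested, by the quasi-likelihood test of edgeR, adjusted after Benjamini and Hochberg, and "rose" and "fell" are used only of called genes. The libraries were not paired in that fit. Of the tested members 4 rose, 15 fell and 43 were not called, where 11.1% of all tested genes were called higher and 11.7% lower. All 3 palmitate libraries lay above all 3 control libraries for 13 members and below them for 24, where 21.7% of all tested genes lay above and 21.2% below. The median log2 fold change, palmitate over control, was -0.10 over the tested members and 0.02 over all tested genes. The members chosen set these shares, so nothing is read from the comparison.

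Level and direction went together within the family, as they did over all tested genes. Of the 18 members with a mean of at least 8 on the log2 CPM scale, 7 fell, none rose and 17 had a negative log2 fold change, with a median of -0.24. Of all 755 genes at that level 158 were called lower and 54 higher, with a median of -0.11. Of the 21 tested members under 4 on that scale, 3 rose and 1 fell (14.3% and 4.8%), with a median of 0.21. Of the 5071 genes at that level 11.4% were called higher and 4.1% lower, with a median of 0.19.

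**Figure D1:**
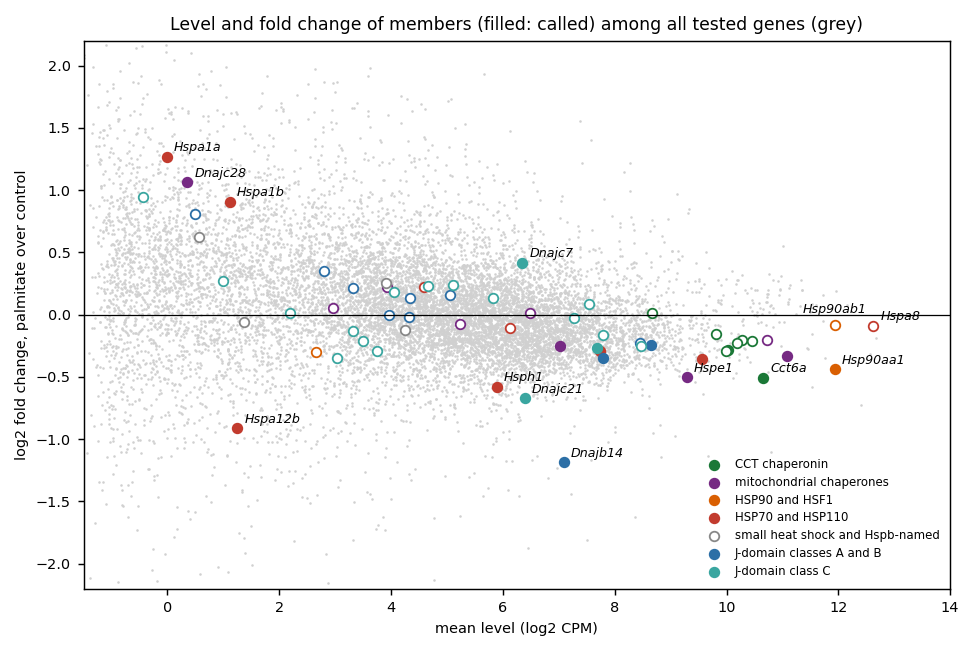
Mean level (log2 CPM, horizontal) and log2 fold change of palmitate over control (vertical) of the 62 tested members, coloured by role and filled where called, over all tested genes in grey; grey genes beyond the vertical range are not drawn. The members that fell lie mostly at the right and the bottom, 3 of the 4 that rose lie at low levels, and Dnajb14 lies lowest at -1.18.

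The calls of members, like those of all genes, depended on single libraries. Without palmitate library 1, 6 members were called lower (Cct6a, Dnajb14, Dnajc21, Hspa4, Hspe1 and Hsph1) and 1 higher, and the same 6 and 1 were called without control library 2; over all genes these fits called 770 lower and 673 higher, and 705 lower and 649 higher. Without palmitate library 2, 8 were called lower and 0 higher (906 and 746 of all genes). Without palmitate library 3, 7 were called lower and 1 higher (635 and 666 of all genes), and without control library 1, 19 lower and 2 higher (1831 and 1604 of all genes). Without control library 3 only Dnajb14 and Hsph1 were called lower and 0 were called higher, in a fit that called 344 genes higher and 346 lower of 12343. With the replicate number as a block, which the labels' shared numbers allow, 22 members were called lower and 4 higher, in a fit that called 1999 genes lower and 2000 higher of 12070 (16.6% each). With upper-quartile scaling the split over all genes was 1651 higher and 1054 lower, against 1343 and 1418 in the TMM-scaled fit, and the members' split was 4 higher and 10 lower.

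Of the 10 CCT-named genes 8 were tested; the subunit genes Cct4 and Cct6a fell, and the other 6 were not called. For 7 of the 8, all but Cct7, every palmitate library lay below every control library, as it did for 277 of the 755 genes with a mean of at least 8 on the log2 CPM scale. Tcp1, which encodes the alpha subunit, had 1176, 1401 and 1333 CPM in palmitate libraries 1 to 3, against 1431, 1545 and 1543 CPM in control libraries 1 to 3. Cct4, the delta subunit, had 855, 1008 and 960 CPM with palmitate, against 1083, 1169 and 1185 CPM in control. In both genes library 1 was the lowest of each group and the groups did not overlap. The log2 fold change of Cct4 was -0.28 ± 0.09 (SE), a call kept in 1 of the 6 fits with a library left out. Tcp1 was at -0.21 ± 0.09 and not called, but was called lower with the replicate block (-0.21 ± 0.07).

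Cct8, which encodes the theta subunit, had 813, 970 and 948 CPM with palmitate, against 1028, 1159 and 1164 CPM in control. Its log2 fold change was -0.30 ± 0.09, not called in the matrix fit, and called lower with the replicate block (-0.30 ± 0.06) and in the transcript sums (-0.31). The remaining subunits with groups that did not overlap were not called. Cct5 (epsilon) averaged 1072 ± 98 CPM with palmitate and 1254 ± 29 CPM in control, and Cct2 (beta) averaged 1151 ± 86 CPM with palmitate and 1323 ± 44 CPM in control. Both were called lower with the replicate block, at -0.23 ± 0.07 for Cct5 and -0.20 ± 0.07 for Cct2. Cct3 (gamma) had 784, 865 and 908 CPM with palmitate, against 944, 919 and 984 CPM in control, and was at -0.15 ± 0.08.

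Cct7, the eta subunit, was the exception. It had 399, 375 and 453 CPM with palmitate, against 413, 393 and 411 CPM in control, so the groups overlapped, and the log2 fold change was 0.01 ± 0.08. The matrix held 52.1% of its transcript reads, those of 1 transcript, and the sum over its transcripts gave -0.02 ± 0.08. In 6 of the 8 subunits, leaving out Cct7 and Cct6a, the log2 fold changes lay between -0.30 and -0.15. The 2 remaining CCT-named genes, Cct6b, a testis-expressed relative of Cct6a, and Cct8l1, did not pass the filter; Cct6b averaged 0.336 and 0.257 CPM with palmitate and in control, and Cct8l1 was at 0.

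Cct6a, the zeta subunit, had the largest decrease of the ring, and its transcripts did not move alike. Its transcript sum was 1180, 1414 and 1386 CPM with palmitate, against 1710, 1935 and 2014 CPM in control, with a log2 fold change of -0.51 ± 0.10. The groups were far apart, and the call was kept in 5 of the 6 fits with a library left out. Of the gene's reads 79.6% belonged to its full-length transcript and 19.6% to a shorter one annotated as retaining an intron. Scaled for length, the shorter one made up 58.0 ± 2.8% of the gene's TPM (the deposited transcript abundance scaled for length and depth) with palmitate and 69.3 ± 1.6% in control (SD, n = 3 each). Counted from its full-length transcript alone, Cct6a still fell, by 0.38 ± 0.09 on the log2 scale. That full-length transcript was at 520 ± 28 TPM with palmitate and 663 ± 35 TPM in control.

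Set per transcript length, the subunits of the ring were not equally abundant. In TPM of coding transcripts Cct2 or Tcp1 was the highest and Cct7 the lowest in each of the 6 libraries, and the ratio of the highest to the lowest subunit was 2.21, 2.63 and 2.21 with palmitate, against 2.57, 2.73 and 2.63 in control. Cct2 and Tcp1 did not differ beyond their spread, at 751 ± 35 and 743 ± 56 TPM with palmitate and 847 ± 9 and 850 ± 37 TPM in control. Cct7 was at 323 ± 19 TPM with palmitate and 325 ± 1 TPM in control. The 8 subunits summed to 4390 ± 237 TPM with palmitate and 5065 ± 113 TPM in control.

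**Figure D2:**
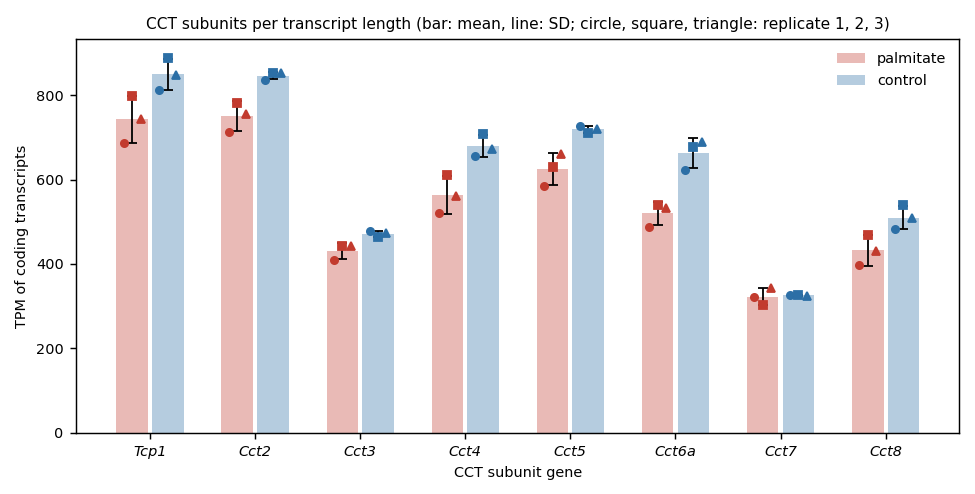
TPM of coding transcripts of the 8 CCT subunits (vertical, from 0), with palmitate at the left of each pair and control at the right; bars are means, lines SD and points the 3 libraries. The palmitate mean is the lower for all 8 genes, and for Cct7 the means are nearly level at 323 and 325 TPM.

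The mitochondrial chamber and its lid fell as well. Hspd1 encodes the barrel that folds proteins after import, and Hspe1, beside it on chromosome 1, encodes the lid. The start sites used here lie 216 bases apart and point away from each other (55087932 for Hspd1 and 55088148 for Hspe1 in RefSeq's GRCm38.p6). The promoter windows at these starts, from 250 bases before to 50 after, share 285 bases. That shared stretch holds units of the heat shock element, the site HSF1 binds, and is shown here because both genes that flank it fell. RefSeq gives Hspd1 another window, chr1:55088194-55088493 on the minus strand, which lies past the Hspe1 start and holds no match. The Hspd1 window used was picked for holding units. Capitals mark the units (GAA or TTC in alternation, found as GAANNTTC or TTCNNGAA), and both lines give the same bases, chr1:55088038-55088097, on the minus strand for Hspd1 and on the plus strand for Hspe1.
Hspd1: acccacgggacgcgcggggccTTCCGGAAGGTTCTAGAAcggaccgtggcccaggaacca
Hspe1: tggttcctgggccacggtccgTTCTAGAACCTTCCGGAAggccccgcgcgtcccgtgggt

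Hspd1 had 1674, 2016 and 2076 CPM in palmitate libraries 1 to 3, against 2239, 2506 and 2497 CPM in control libraries 1 to 3. Hspe1 had 446, 560 and 549 CPM with palmitate, against 685, 732 and 785 CPM in control. In both genes library 1 was the lowest of its group, and no palmitate library reached a control library. The log2 fold change was -0.33 ± 0.10 for Hspd1, called in 1 of the 6 fits with a library left out, and -0.50 ± 0.10 for Hspe1, called in 5. Per length, the messages of lid and barrel stood at a ratio of 1.3, 1.335 and 1.314 with palmitate, against 1.504, 1.509 and 1.576 in control.

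Hspa9 encodes the HSP70 of the mitochondrial matrix, which pulls proteins in and folds them. It had 1347, 1735 and 1650 CPM with palmitate, against 1614, 2027 and 1825 CPM in control, and the groups overlapped. At -0.21 ± 0.12 it was not called, while the fit with the replicate block, in which each palmitate library stands against the control library of its number, called it lower (-0.21 ± 0.07). Dnajc11, a J-domain protein of the complexes that shape the inner membrane, fell by 0.25 ± 0.08 on the log2 scale, with 112, 120 and 124 CPM with palmitate, against 153, 137 and 134 CPM in control, but was called in 0 of the 6 fits with a library left out.

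The J-domain partners of the matrix HSP70 were not called. Dnaja3, its main folding partner, averaged 89.7 ± 6.8 CPM with palmitate and 89.0 ± 5.6 CPM in control. Dnajc19, of the import motor, averaged 16.3 ± 1.5 and 13.9 ± 0.4 CPM with palmitate and in control, and Dnajc15, its relative, 36.3 ± 4.7 and 38.3 ± 3.4 CPM. The matrix held 37.0% of the transcript reads of Dnajc19 and 27.4% of those of Dnajc15, and the transcript sums gave 0.05 ± 0.09 and -0.03 ± 0.09. Dnajc30, an inner-membrane J-domain protein, was at 0.06 ± 0.13.

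Dnajc28 rose, at a very low level. It had 1.89, 1.69 and 1.37 CPM with palmitate, against 0.721, 0.880 and 0.774 CPM in control, and rose by 1.06 ± 0.27 on the log2 scale. The groups did not overlap, but the call was kept in 1 of the 6 fits with a library left out, and transcript sums with length offsets gave 0.12, not called.

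The 2 cytosolic HSP90 genes parted. Hsp90aa1, the form that stress and growth induce, had 2886, 3446 and 3630 CPM in palmitate libraries 1 to 3, against 3999, 4805 and 4710 CPM in control libraries 1 to 3. Hsp90ab1, the constitutive form, had 3393, 3993 and 4047 CPM with palmitate, against 4067, 4056 and 4022 CPM in control. The groups of Hsp90aa1 did not overlap; those of Hsp90ab1 did, with palmitate library 1 well below the control range. Hsp90aa1 fell by 0.44 ± 0.11 on the log2 scale and was called in 2 of the 6 fits with a library left out, while Hsp90ab1 was at -0.09 ± 0.09 and not called. Per length the ratio of Hsp90aa1 to Hsp90ab1 was 0.796, 0.817 and 0.840 with palmitate, against 0.934, 1.09 and 1.06 in control.

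Hsf1, the transcription factor that drives many of these genes under stress, cannot be read from the gene matrix. The matrix held 26.7% of its transcript reads, those of 1 transcript, which was at 3.62, 6.04 and 7.15 CPM with palmitate and at 11.7, 0 and 8.76 CPM in control. Over all its transcripts Hsf1 was at 18.7, 15.6 and 13.9 TPM with palmitate, against 16.4, 14.2 and 12.8 TPM in control. The groups overlapped, and the transcript sums gave a log2 fold change of 0.13 ± 0.11, not called.

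**Figure D3:**
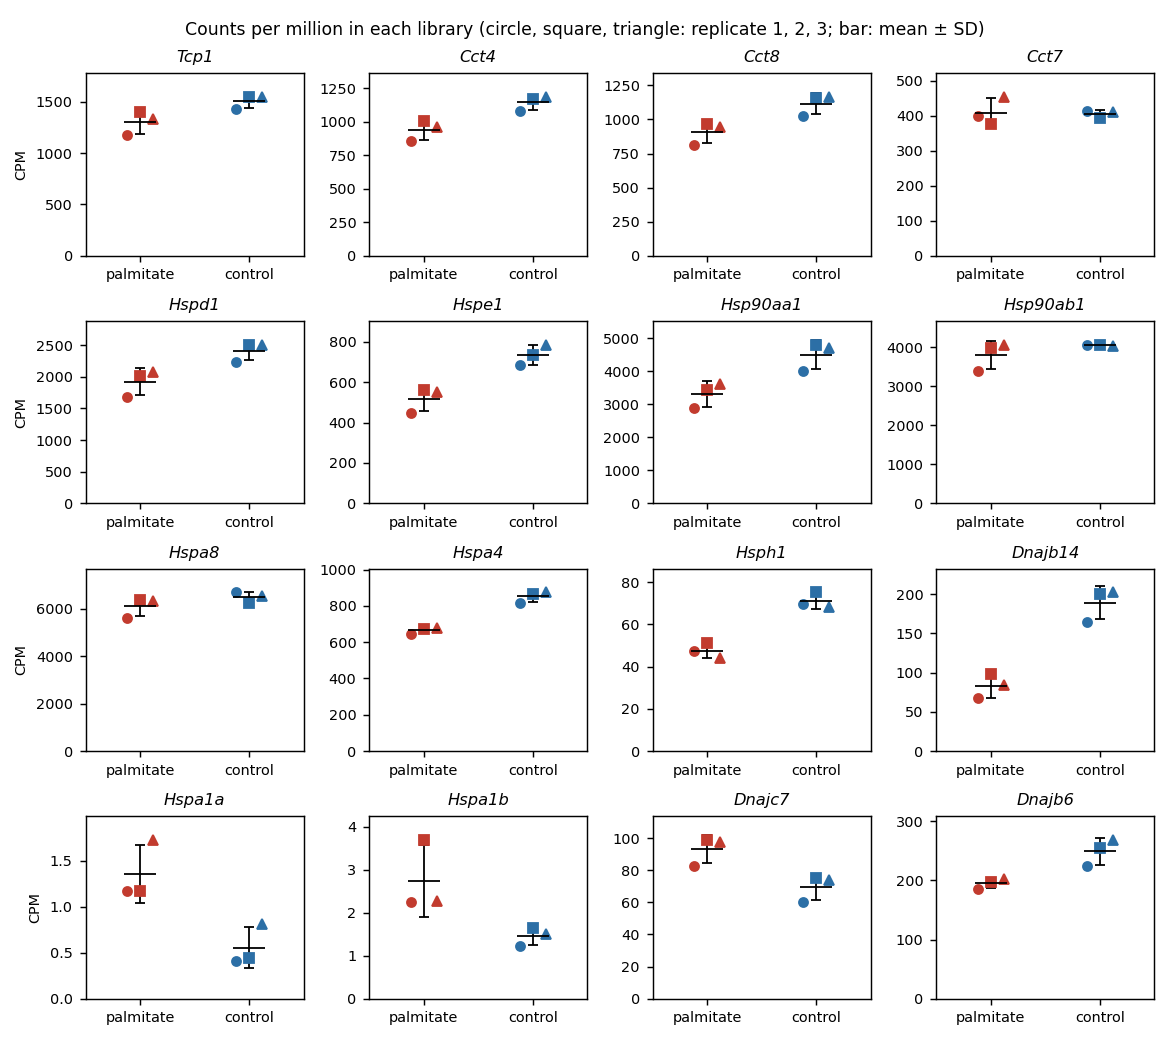
CPM (vertical, from 0) of 16 members in each library, palmitate at the left and control at the right; the horizontal bar is the mean and the whiskers are the SD of 3 libraries. Hsp90aa1, Hspd1, Hspe1, Hspa4, Hsph1 and Dnajb14 separate downwards, Hspa1a, Hspa1b and Dnajc7 upwards, and Hspa8, Hsp90ab1 and Cct7 overlap.

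Among the HSP70 and HSP110 genes 2 of the 3 HSP110 exchange factors fell, while the most abundant HSP70 was not called. Of all tested genes 11.7% were called lower. Hspa8, the constitutive HSP70 and the most abundant member, had 5620, 6376 and 6303 CPM with palmitate, against 6680, 6237 and 6534 CPM in control. The groups overlapped, and the log2 fold change was -0.09 ± 0.08. Hspa4, an HSP110 that exchanges the nucleotide of HSP70, had 646, 673 and 679 CPM with palmitate, against 818, 864 and 874 CPM in control. Its libraries were tight within each group and well apart between them, and it fell by 0.36 ± 0.07 on the log2 scale, called in 5 of the 6 fits with a library left out.

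Hsph1, the heat-inducible HSP110, had 47.2, 51.3 and 44.0 CPM with palmitate, against 69.8, 75.1 and 68.0 CPM in control. It fell by 0.58 ± 0.08 on the log2 scale and was 1 of 2 members, with Dnajb14, called in each of the 6 fits with a library left out. The matrix held 31.4% of its transcript reads, and over all its transcripts the decrease was larger, at -0.72 ± 0.10. Hspa4l, the third HSP110 gene, averaged 25.9 ± 2.0 CPM with palmitate and 22.1 ± 1.3 CPM in control and was not called (0.22 ± 0.10), in a matrix that held 44.0% of its transcript reads. The 30 bases around the units of the element in Hsph1 (RefSeq, GRCm38.p6, chr5:149636280-149636309, minus strand, just after the start site) are given because Hsph1 fell in each of those fits.
Hsph1: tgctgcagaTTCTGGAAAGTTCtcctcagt

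The stress-inducible pair Hspa1a and Hspa1b rose, at very low levels beside Hspa8. Hspa1a had 1.17, 1.18 and 1.73 CPM with palmitate, against 0.412, 0.440 and 0.809 CPM in control, and Hspa1b had 2.26, 3.69 and 2.26 CPM with palmitate, against 1.24, 1.64 and 1.51 CPM in control. The log2 fold changes were 1.27 ± 0.37 for Hspa1a and 0.91 ± 0.27 for Hspa1b. The groups did not overlap in either gene, but neither call was kept in any of the 6 fits with a library left out, and the coding sequences of this pair are nearly identical, so the division of reads between them is uncertain. Their promoter windows carry the same stretch with the same pair of units, on the minus strand at chr17:34972227-34972286 and chr17:34959309-34959368 (RefSeq, GRCm38.p6), shown because these 2 stress genes are among the 4 members that rose.
Hspa1a: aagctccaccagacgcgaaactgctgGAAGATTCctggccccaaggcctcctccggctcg
Hspa1b: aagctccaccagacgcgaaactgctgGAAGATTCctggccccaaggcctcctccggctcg

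The other HSP70 genes held less RNA than Hspa8. Hspa14, an HSP70 that works at the ribosome with the J-domain protein DNAJC2, had 185, 195 and 196 CPM with palmitate, against 225, 232 and 247 CPM in control. It fell by 0.29 ± 0.07 on the log2 scale, called in 1 of the 6 fits with a library left out. Hspa12b, a distant relative known from endothelium, had 1.65, 1.81 and 1.19 CPM with palmitate, against 2.64, 2.88 and 3.31 CPM in control, and fell by 0.91 ± 0.24 on that scale, called in 2 of those fits. Hspa13, an endoplasmic reticulum HSP70, averaged 66.9 ± 5.3 CPM with palmitate and 72.2 ± 14.9 CPM in control and was not called. Hspa12a, Hspa1l and Hspa2 did not pass the filter.

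Of the J-domain proteins of classes A and B, the HSP70 partners of the general folding cycle, 11 of 14 were tested. Of these 3 fell and none rose, where 11.7% of all tested genes were called lower and 11.1% higher. Dnajb14, anchored in the endoplasmic reticulum membrane with its J domain in the cytosol, had 67.8, 98.0 and 83.8 CPM with palmitate, against 165, 200 and 202 CPM in control. It had the largest decrease of the family, to 0.44 of the control level (log2 fold change -1.18 ± 0.14), with a wide gap between the groups, and was called in 6 of 6 fits with a library left out. Its relative Dnajb12, in the same membrane, averaged 21.1 ± 2.0 CPM with palmitate and 19.2 ± 1.2 CPM in control and was not called.

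Dnajb6, which keeps aggregation-prone proteins soluble, had 185, 198 and 203 CPM with palmitate, against 224, 254 and 268 CPM in control, and fell by 0.35 ± 0.08 on the log2 scale, called in 1 of the 6 fits with a library left out. Its promoter is shown as another member that fell and carries several units (RefSeq, GRCm38.p6, chr5:29735828-29735887, plus strand).
Dnajb6: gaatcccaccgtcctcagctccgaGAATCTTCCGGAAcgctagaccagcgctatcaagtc

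Dnaja2, a main cytosolic partner of HSP70, had 356, 366 and 383 CPM with palmitate, against 405, 454 and 451 CPM in control. It fell by 0.25 ± 0.08 on the log2 scale, called in 1 of the 6 fits with a library left out. Dnaja1, the other main cytosolic partner, had 297, 337 and 337 CPM with palmitate, against 339, 401 and 398 CPM in control. Its groups did not overlap but nearly touched, and at -0.23 ± 0.09 it was not called, whereas the replicate block called it lower (-0.23 ± 0.06). Dnajb1, the stress-inducible partner, averaged 35.1 ± 5.2 CPM with palmitate and 31.4 ± 4.7 CPM in control, not called, in a matrix with 45.5% of its transcript reads. Of the lower-expressed members, Dnajb13 had the highest log2 fold change, 0.80 ± 0.27, and was not called.

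Class C holds J-domain proteins tied to single tasks. Of 21 genes 18 were tested, 1 rose and 2 fell, where 11.1% of all tested genes were called higher and 11.7% lower. Dnajc21, which acts in the maturation of the large ribosomal subunit, had 54.8, 69.5 and 69.3 CPM with palmitate, against 85.5, 121 and 103 CPM in control, and fell by 0.67 ± 0.14 on the log2 scale, called in 5 of the 6 fits with a library left out. Dnajc8, found with the splicing machinery, had 176, 201 and 180 CPM with palmitate, against 220, 220 and 231 CPM in control, and fell by 0.27 ± 0.07, called in 2. In both genes all palmitate libraries lay under all control libraries.

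Dnajc7, which binds HSP70 and HSP90 at once and passes clients between them, moved the other way, and was singled out after its values were seen. It had 82.9, 98.8 and 97.7 CPM with palmitate, against 60.3, 75.1 and 73.7 CPM in control, and rose by 0.42 ± 0.11 on the log2 scale, called in 3 of the 6 fits with a library left out. The other 3 members that rose averaged under 3 CPM in each group. Over all its transcripts Dnajc7 was at 71.0 ± 3.2 TPM with palmitate and 47.3 ± 3.7 TPM in control. Its coding transcripts alone had 36.9, 33.8 and 33.5 TPM with palmitate, against 23.2, 32.5 and 33.1 TPM in control. Apart from control library 1, these coding values were nearly level, so the rise of the gene is not shown for its coding message. The main coding transcript made up 46.9 ± 2.0% of the gene's TPM with palmitate and 54.4 ± 9.6% in control. A non-coding transcript made up 15.0 ± 6.8% with palmitate and 6.0 ± 0.7% in control, and was well above the control range in 2 of the 3 palmitate libraries.

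Dnajc2, the J-domain partner of HSPA14 at the ribosome, had 307, 331 and 338 CPM with palmitate, against 351, 392 and 418 CPM in control. It was at -0.25 ± 0.09, not called, and called lower with the replicate block (-0.25 ± 0.06). Dnajc9, a chaperone of histones, averaged 208 ± 6 CPM with palmitate and 233 ± 10 CPM in control and was not called (-0.16 ± 0.07), although its groups did not overlap. Dnajc5, which chaperones proteins of secretory vesicles, averaged 191 ± 6 CPM with palmitate and 180 ± 11 CPM in control, and Dnajc13, an endosomal protein, averaged 154 ± 6 CPM with palmitate and 157 ± 13 CPM in control; neither was called and both overlapped.

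The small heat shock proteins were nearly silent. Of the 10 Hspb-named genes 4 were tested and none was called, and the 10 together summed to 39.2 ± 1.2 CPM with palmitate and 37.3 ± 3.0 CPM in control. Most of that sum came from genes that share the name and not the function. Hspbp1, an exchange factor of HSP70, averaged 18.2 ± 1.3 CPM with palmitate and 19.7 ± 2.9 CPM in control. Hspb11, a component of ciliary transport, averaged 16.2 ± 1.5 CPM with palmitate and 13.6 ± 0.5 CPM in control. Hspb6, a true small heat shock protein, averaged 1.73 ± 0.16 CPM with palmitate and 1.12 ± 0.31 CPM in control. Hspb1, the best known of them, averaged 0.0598 CPM with palmitate and 0.0117 CPM in control and, like Hspb2, Hspb3, Hspb7, Hspb8 and Hspb9, did not pass the filter. The other untested members were Dnajb3, Dnajb7, Dnajb8, Dnajc22, Dnajc5b and Dnajc5g.

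**Figure D4:**
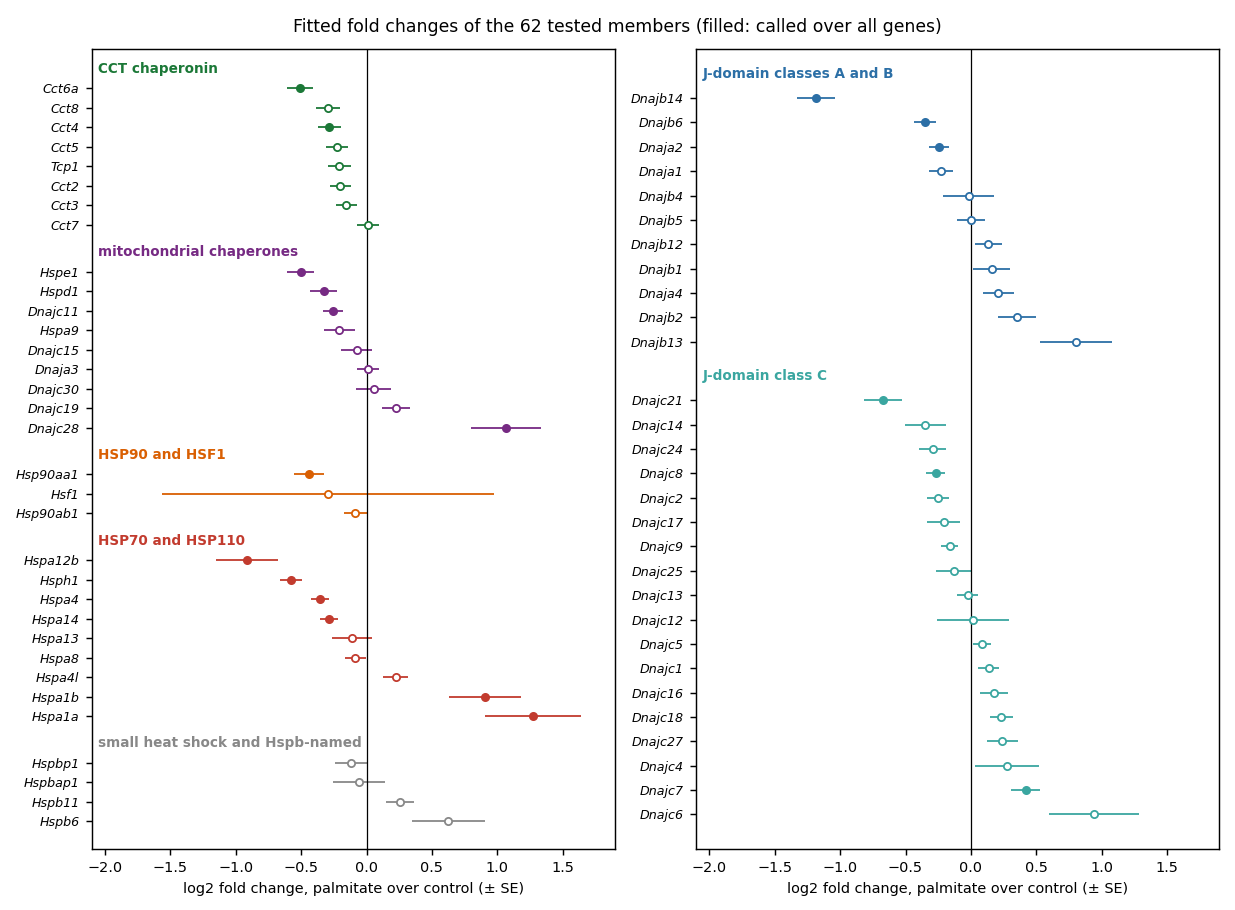
Log2 fold changes of palmitate over control with their SE for the 62 tested members, grouped by role; filled points are called over all genes. Of the 8 CCT subunits 7 lie left of 0, between -0.51 and -0.15, Dnajb14 lies farthest left at -1.18, and Hspa1a lies farthest right at 1.27.

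How the matrix was counted touched 18 members with at least 200 transcript reads, for which it departed from the sum of their transcripts by more than 1.5 reads and more than 1% of their largest library; for 14 of these the matrix equalled a single transcript. In 9 of them it held under 50% of the reads. For 2 of the 18 the transcript sums changed the call. Hspbap1, named for a protein that binds a small heat shock protein, was at -0.06 ± 0.20 in the matrix with 14.8% of its reads. Over all its transcripts it was at 8.26, 7.31 and 7.19 TPM with palmitate, against 9.85, 10.3 and 10.5 TPM in control, and its transcript sum fell by 0.43 ± 0.10 on the log2 scale. Dnajc18 was at 0.23 ± 0.09 and not called in the matrix, with 83.9% of its reads, and its transcript sum rose by 0.30 ± 0.08. Dnajc14, of which the matrix held 12.1%, was at -0.35 ± 0.16 in the matrix and at 0.07 ± 0.08 in the transcript sums, called in neither.

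**Figure D5:**
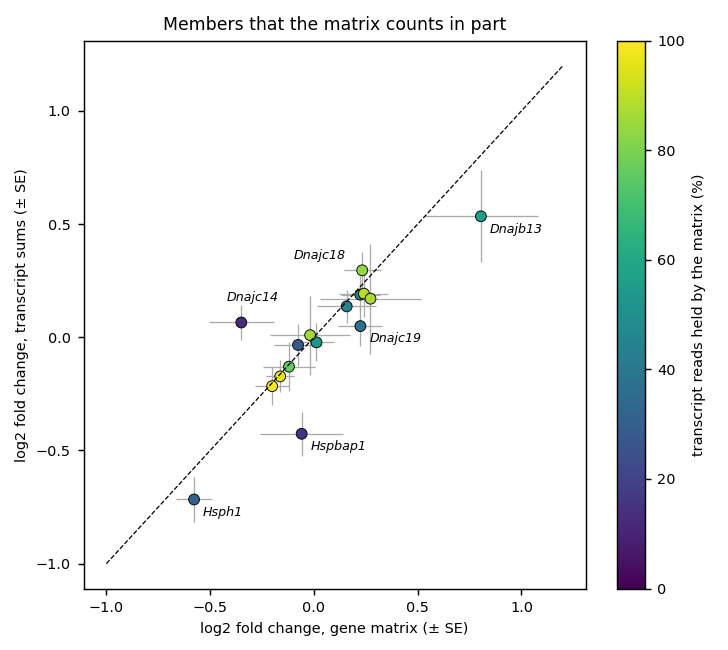
Log2 fold change in the gene matrix (horizontal) and in the transcript sums (vertical), each with its SE, for the partly counted members tested in both, apart from Hsf1; colour gives the percentage of transcript reads in the matrix, and the dashed line marks equal values. Most points lie near the line, and Hspbap1 (-0.06 and -0.43) and Dnajc14 (-0.35 and 0.07) lie off it.

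Units of the heat shock element were counted in the family's promoters. RefSeq windows (GRCm38.p6) were matched for 63 of the 79 members, 82 windows in all, against 32851 windows of all genes. No window was matched for Hspa8, Hsp90aa1, Hsp90ab1, Hspa9, Cct4 and Hsf1, among others, so their promoters were not searched. Neighbouring pairs of units (GAANNTTC or TTCNNGAA, each of which reads the same on both strands) were in 21 of the 82 windows (25.61%) and in 15.06% of all windows. At least 3 alternating units, which are overlapping matches of those patterns, were in 6 of the 82 windows (7.32%) and in 0.6% of all windows. Some windows of a gene overlap and hold the same site. Counted by gene, pairs were in 19 of 63 members (30.16%) and in 16.97% of all genes. Runs of at least 3 units were in 4 of 63 members (6.35%) and in 0.66% of all genes. The member windows were richer in G and C, with a median of 62.0% against 52.7%. A match is a run of letters and says nothing of whether HSF1 binds there.

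Among the 63 members with a window, the 4 with 3 or more units were Hspd1, Hspe1, Hsph1 and Dnajb6, the sequences shown above, and all 4 fell. Hspd1 and Hspe1 share 1 stretch, so these are 3 sequences. Of the 10 tested members with a pair of units but no run of 3, 2 rose (Hspa1a and Hspa1b) and 1 fell (Cct6a). Of the 35 tested members with a window and no match, 2 rose and 7 fell. Over all genes, 1295 with a pair were tested, runs of 3 included, of which 12.7% were called higher and 13.5% lower. Over all genes, 48 with at least 3 units were tested, of which 11 fell and 4 rose, with a median log2 fold change of -0.06. The 4 members named above are counted again among the 11 that fell. Of the 9209 tested genes with a window, 12.1% were called lower and 11.6% higher. Dnajb14, with the largest decrease, had no match in its window.

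Genes outside the family that work with these machines were described from lists of partners. Of 23 cochaperones of HSP70 and HSP90 12 fell and none rose, with a median log2 fold change of -0.30, where 11.7% of all tested genes were called lower. Ppid, a prolyl isomerase that joins HSP90 complexes, averaged 305 ± 18 CPM with palmitate and 479 ± 44 CPM in control and fell by 0.65 ± 0.09 on the log2 scale. Ptges3, the p23 protein that stabilises closed HSP90, fell by 0.54 ± 0.12, and St13, which holds HSP70 in its bound state, fell by 0.37 ± 0.08. The exchange factors Bag2, Bag3 and Bag4 fell by 0.72 ± 0.12, 1.02 ± 0.25 and 0.59 ± 0.10. Stip1, which links HSP70 to HSP90, averaged 365 ± 33 CPM with palmitate and 437 ± 3 CPM in control and was not called. Ppid, Bag2 and Bag4 were called in 6 of 6 fits with a library left out, and Ptges3, St13 and Bag3 in 2.

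Of 11 genes listed for prefoldin, which brings actin and tubulin to CCT, and for CCT cofactors, 4 fell and 1 rose. Of all tested genes 11.7% were called lower and 11.1% higher. Pfdn2, Pfdn4 and Vbp1 fell by 0.51 ± 0.14, 0.42 ± 0.10 and 0.34 ± 0.10 on the log2 scale, and the cofactor Txndc9 fell by 0.21 ± 0.06; with a library left out these calls were kept in 1, 3, 1 and 0 of 6 fits. Pfdn5 rose by 0.99 ± 0.12, to 129 ± 4 CPM with palmitate, against 64.9 ± 11.6 CPM in control, and was called in 6 of 6 fits with a library left out. Among 11 actin and tubulin genes, the main clients of CCT, 2 fell and none rose. Tubb6 fell by 1.05 ± 0.12, called in 6 of 6 such fits, and Actg1 by 0.27 ± 0.07, called in 1, while Actb, Tuba1b and Tubb5 were at -0.18 ± 0.08, -0.08 ± 0.11 and 0.05 ± 0.08 and were not called.

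Of 15 partners of the mitochondrial chaperones 2 fell and 2 rose, where 11.7% of all tested genes were called lower and 11.1% higher. Tomm70a, the import receptor to which HSP70 and HSP90 hand proteins, averaged 448 ± 17 CPM with palmitate and 572 ± 29 CPM in control and fell by 0.35 ± 0.07 on the log2 scale, called in 5 of 6 fits with a library left out. Tomm20, Timm23 and the matrix protease gene Lonp1 were not called. Of the 16 endoplasmic reticulum chaperones outside the family 3 rose and none fell. Calr, the calcium-binding lectin chaperone, rose by 0.29 ± 0.08, called in 1 of 6 such fits, while Hspa5, Hsp90b1 and Canx were at 0.14 ± 0.17, -0.04 ± 0.11 and 0.00 ± 0.07 and were not called. Of the other heat shock factors and regulators, Hsf2 (-0.35 ± 0.23) and the HSF1-binding Hsbp1 (-0.02 ± 0.09) were not called, and Hsf4 and Hsf5 did not pass the filter.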

How the data were processed

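RNA of 6 libraries was measured, 3 of palmitate-treated and 3 of control cells. Libraries were made from total RNA with the SMARTER mRNA-Seq kit, per the labels' protocols. Salmon 1.10.0, Trim Galore 0.6.10, DESeq 1.42.0 and the build GRCm39 are named in the submitters' processing notes, and the sources used here give no strand setting. Estimated counts as whole numbers per gene, and Salmon's expected counts and TPM per transcript and library, were deposited by the authors. Symbols came from GENCODE M21 (an earlier build, GRCm38). The matrix equalled the transcript sum within 1.5 reads for 23526 of 29131 genes (80.8%); 0 of its columns were left unused. Cct6a and Hspa14, absent there, were added as rounded transcript sums; Cct6a is protein-coding in RefSeq but not so typed in M21, and was counted as a member.

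The members and all lists were chosen with earlier results of these data known. All genes were fitted together in R 4.3.3 with edgeR 4.0.16 (TMM, low-count filter, robust quasi-likelihood, two-sided, Benjamini-Hochberg at 0.05), after tests on simulated data. CPM use TMM-scaled totals; folds are palmitate over control. Reads that fit near-identical genes are divided by Salmon and are uncertain. Genes named were all tested CCT, mitochondrial, HSP90 and HSF1 members, and in other roles the 6 most abundant tested members plus called members with a log2 change of at least 0.5 in size. Of each other list, up to 4 of the most abundant were named plus called ones of that size. Dnajc7, Dnajb13, Dnajc14 and Dnajc18 were named after their values were seen. Promoter windows are RefSeq's.

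Replicate numbers are shared between groups. Same-number libraries deviated together (r across genes 0.30, 0.19 and 0.17, against -0.25 to 0.08 for other pairs). Each gene was first centred on its group's mean, so positive same-number values push the other pairs towards negative values. The contrast with the other pairs is therefore no separate evidence of pairing. By the rule that all exceed 0.1 the numbers were taken as pairing, which only the fit with the replicate block used. The main fit, with 4 members called higher and 15 lower, left the pairing out. Replicates differed by more than sampling noise (chi-square per gene 11.5 to 37.6). Alternatives were scaling by RLE or upper quartile, all genes unfiltered, a mean of at least 5 CPM, DESeq2 1.42.0, limma-voom (limma 3.58.1), the replicate block, transcript sums with and without length offsets, leaving out each library, and, added after seeing the data, Cct6a from its full-length transcript.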

Additional observations from a re-analysis of the deposited data

How the results depend on the processing

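Against 4 members called higher and 15 lower, a minimum mean of 5 CPM left 1 higher (it removes genes tested) and transcript sums with length offsets 2. Leaving out 1 library gave 0 to 2 higher and 2 to 19 lower. RLE scaling gave 4 and 15, upper-quartile scaling 4 and 10, no filter 3 and 15, DESeq2 3 and 19, limma-voom 4 and 14, transcript sums 5 and 17, and Cct6a from its full-length transcript 4 and 15. With the replicate block the members were 4 higher and 22 lower, the additions being Cct2, Cct5, Cct8, Tcp1, Dnaja1, Dnajc2 and Hspa9; the pairing changed no other member's call. Of 670 named-member values under other settings 550 kept direction and call, 79 lost the call, 19 gained it and 22 changed sign, none of which was called in the TMM-scaled fit. Sign changes were 1.86 (limma-voom), 0.30 (replicate block), 0.13 (transcript sums) and 0.0971 (length offsets) for Hsf1, whose matrix count is 0 in 1 control library; -0.0224 and -0.033 (transcript sums, length offsets) for Cct7; 0.0338 (upper quartile), 0.001 (5 CPM) and 0.0142 (length offsets) for Dnajc13; -0.0052 and -0.0118 (transcript sums, length offsets) for Dnaja3; and -0.0123 (length offsets) for Dnajc19. With a library left out, values ran from -0.0697 to 0.0631 for Cct7, -0.88 to 0.33 for Hsf1, -0.0795 to 0.0397 for Dnajc13, -0.0614 to 0.0445 for Dnaja3, -0.173 to 0.0161 for Dnajc15, -0.004 to 0.109 for Dnajc30 and -0.113 to 0.0255 for Hspbap1. The cause of these changes was not tested. Members under about 2 CPM rest on few reads.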
